A study of Homo sapiens with 12 samples.

Results

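Expression of the insulin-like growth factor (IGF) family was followed through 10 genes: the ligand gene IGF2, the receptor genes IGF1R, IGF2R and INSR, and the binding protein genes IGFBP1 to IGFBP6. The members were the rows of the expression table that carry these symbols, 10 of 35337. The table covers EndoC-βH3, a human beta-like cell line established from fetal pancreas, whose proliferation depends on hTERT and the large T antigen of SV40, both introduced as transgenes. A CreER recombinase in the cells removes both once it is activated by 4-hydroxytamoxifen (4-OHT), after which the cells become senescent. All 12 samples come from this transgenic line and are labelled wild type, 6 came from senescent cells (3 weeks of 4-OHT) and 6 from untreated non-senescent cells, and each group has 2 samples in batch A and 4 in batch B, where the batch is the letter of the sample title. The senescent group therefore differed from the control in drug exposure, transgene loss and arrest at once, and these cannot be told apart here. The labels do not say whether the samples were separate cultures, so the p-values measure only the spread between these samples, and in bulk RNA a change in the share of expressing cells cannot be told apart from a change in RNA per cell. All samples are from 1 line, and the stated culture medium lists neither serum nor insulin.

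IGF2 is a secreted growth factor related to insulin, made at high levels in fetal tissues and imprinted in most of them. It signals through the tyrosine kinase receptors encoded by IGF1R and INSR, while the IGF2R product, also the cation-independent mannose 6-phosphate receptor, takes IGF2 into the cell for lysosomal degradation without kinase signalling. The IGFBP genes encode secreted proteins that bind IGFs in the extracellular space and either withhold them from, or present them to, the receptors. In beta cells INSR and IGF1R are known to take part in growth, survival and the response to insulin, and IGF2 is known as an autocrine ligand of beta cells.

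The sequences printed first are the promoters of the 3 receptor genes, which were all called higher, and of IGFBP5, a binding protein gene called lower. They were chosen with the results known, and the windows of IGFBP2, also called lower, are not printed. A contrast between the printed windows therefore rests on that choice. Each is a window of RefSeq on GRCh38.p14 with 250 bases before and 50 bases after an annotated start, printed 5′ to 3′ on the strand of the gene. The windows are at chr15:98648289-98648588 (IGF1R, plus strand), chr6:159968832-159969131 (IGF2R, plus strand), chr19:7294365-7294664 (INSR, minus strand) and chr2:216695500-216695799 (IGFBP5, minus strand). Capitals mark matches on either strand, overlapping ones included, to a GC box (GGGCGG, the core of Sp1-type sites), a TATA box (TATAAA) or an E2F site (TTTGGCGC, TTTCCCGC, TTTGCCGC or TTTCGCGC).
IGF1R: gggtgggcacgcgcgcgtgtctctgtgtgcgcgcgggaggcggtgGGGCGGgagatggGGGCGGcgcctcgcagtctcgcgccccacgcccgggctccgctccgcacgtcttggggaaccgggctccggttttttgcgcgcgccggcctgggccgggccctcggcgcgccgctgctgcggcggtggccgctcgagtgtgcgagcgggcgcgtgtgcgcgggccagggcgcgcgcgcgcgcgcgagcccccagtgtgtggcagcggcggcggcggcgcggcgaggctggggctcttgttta
IGF2R: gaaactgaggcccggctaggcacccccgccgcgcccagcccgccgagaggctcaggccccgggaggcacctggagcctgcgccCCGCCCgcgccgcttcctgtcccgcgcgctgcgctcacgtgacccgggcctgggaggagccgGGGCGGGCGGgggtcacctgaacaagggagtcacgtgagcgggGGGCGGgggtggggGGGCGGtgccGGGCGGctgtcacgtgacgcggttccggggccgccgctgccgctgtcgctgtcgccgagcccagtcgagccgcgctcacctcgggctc
INSR: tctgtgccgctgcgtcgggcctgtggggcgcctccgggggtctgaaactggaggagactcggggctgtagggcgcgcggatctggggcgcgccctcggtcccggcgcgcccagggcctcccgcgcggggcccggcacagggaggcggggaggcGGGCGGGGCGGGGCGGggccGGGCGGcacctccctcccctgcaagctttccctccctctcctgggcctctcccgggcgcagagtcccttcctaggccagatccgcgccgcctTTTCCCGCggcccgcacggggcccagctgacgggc
IGFBP5: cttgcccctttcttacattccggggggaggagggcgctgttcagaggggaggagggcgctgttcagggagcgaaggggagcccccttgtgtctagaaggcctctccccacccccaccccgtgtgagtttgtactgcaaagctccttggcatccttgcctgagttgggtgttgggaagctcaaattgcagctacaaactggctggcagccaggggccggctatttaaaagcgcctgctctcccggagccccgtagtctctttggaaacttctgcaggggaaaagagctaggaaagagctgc
The window of IGF1R held 2 GC boxes, that of IGF2R held 6 and that of INSR held 4 together with 1 E2F match, and no TATA box was found in these 3. Their GC contents were 79.7%, 78.7% and 78.3%, against a median of 58.7% over 35116 windows of the same length. The IGFBP5 window had a GC content of 59.0% and held none of the searched motifs. Among all windows a GC box was found in 45.0%, a TATA box in 11.5% and an E2F site in 3.31%. In all, 8 of the 10 members matched a window, and the other matched members held 2 GC boxes (IGFBP3), 2 GC boxes and 1 TATA box (IGFBP4), 1 GC box (IGFBP6) and 1, 1 and 0 GC boxes in the 3 windows of IGFBP2. A match is a description of the letters only.

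Values are normalised read counts, that is CEL-seq2 reads of a gene divided by the size factor of its library. CEL-seq2 reads the 3′ end of transcripts, so levels are compared here between samples and not between genes. Libraries held 8873569 to 17106776 reads in batch A and 4672924 to 7063264 in batch B, so that 3 reads, the number that a count of 0 allows, correspond to 1.35 to 4.52 normalised read counts. Such limits cover counting error only. Beta cell markers were present in every library, with INS, the insulin gene, between 11021 and 185508 normalised read counts, while SLC2A2, the gene of the GLUT2 glucose transporter, stayed at 5 reads or fewer. Of 4 markers of other islet endocrine cells SST, the somatostatin gene, was at 114932 to 287479 and GCG, the glucagon gene, at 507 to 5461. PPY had at most 2 reads in any library and GHRL at most 20. The label of beta cells therefore does not cover all the hormone genes these cells expressed.

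Of the 10 members 8 had a mean of at least 5 over the 12 samples and were tested, none of them only through 1 group. A gene was called when limma's moderated test, adjusted over 13847 genes, gave a Benjamini-Hochberg adjusted p under 0.1 and the fold change exceeded 1.5, with batch in the model. Of these 8 members 7 were called, against 23.4% of all tested genes: 4 were higher in senescent cells (IGF2, IGF1R, IGF2R and INSR, background 11.6%) and 3 were lower (IGFBP1, IGFBP2 and IGFBP5, background 11.8%). The members were chosen with earlier results of these data known, so these shares are a description and no evidence of an excess in the family. All 7 had the same direction in batch A as in batch B. In 5 of the 8 tested members (IGF2, IGF1R, INSR, IGFBP2 and IGFBP5) the groups overlapped neither within batch A nor within batch B. The same held for 23.8% of all tested genes. Of all calls 49.6% were higher in senescent cells, and 36.9% when every library was scaled to the same total, where 5 of the 8 tested members were called and none changed direction. Over all tested genes the log2 fold change had a median of 0.01 and a median standard error of 0.16. Under these limits the ligand and the 3 receptor genes increased, and the 3 called binding protein genes among the members decreased.

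**Figure D1:**
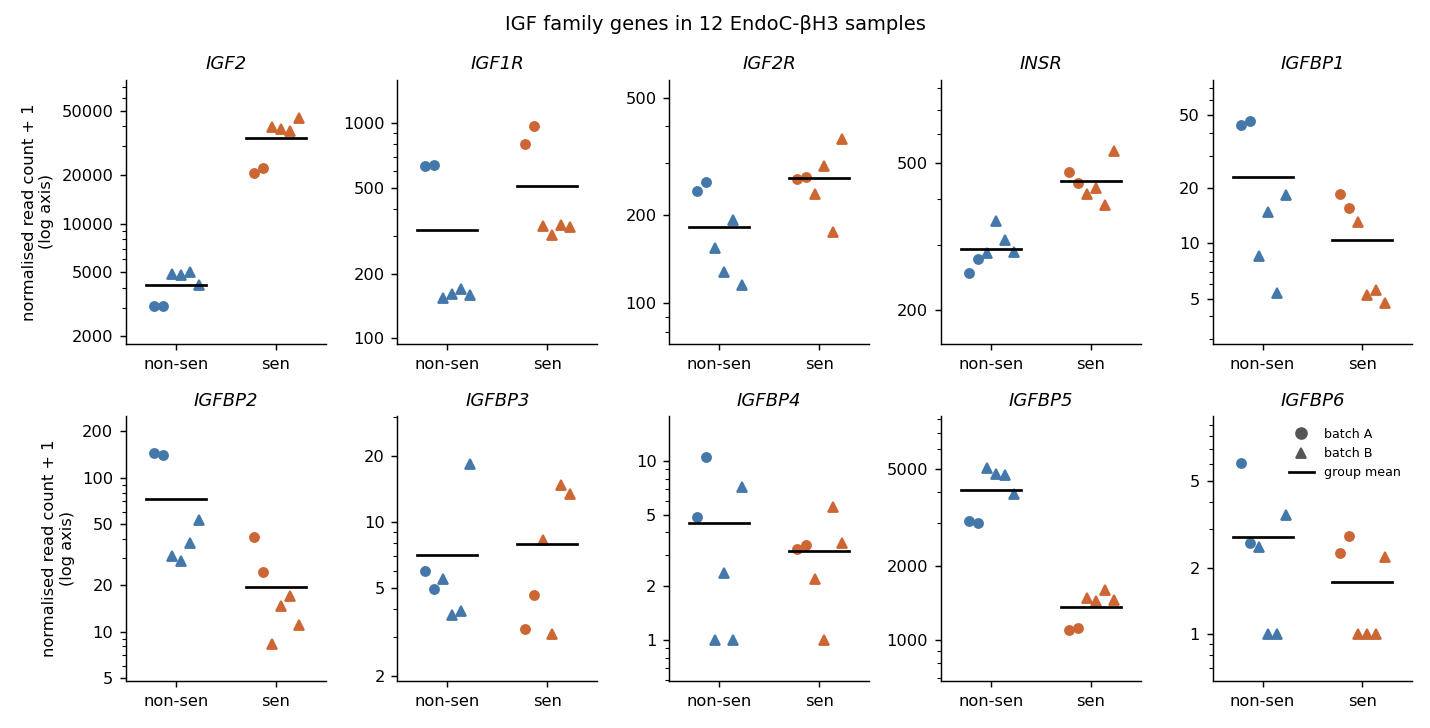
Normalised read count plus 1 on log axes for the 10 IGF family genes in non-senescent (non-sen, blue) and senescent (sen, orange) EndoC-βH3 samples, each point 1 sample, circles batch A and triangles batch B, with bars at the group means plus 1. IGF2 and INSR are higher and IGFBP5 is lower in every senescent sample than in any non-senescent one, IGF1R and IGFBP2 separate only within a batch, and IGFBP4 and IGFBP6 stay below 10 normalised read counts.

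IGF2 (chromosome 11, 2129112 to 2158391, minus strand, GENCODE v44 on GRCh38) is the only IGF ligand gene among the members. In batch A the non-senescent samples had 3070 and 3085 normalised read counts and the senescent samples had 20444 and 22155. In batch B the non-senescent samples had 4886, 4795, 4999 and 4170 and the senescent samples had 39873, 38315, 37301 and 45284. Every senescent sample was thus several times above every non-senescent sample. The group means rose from 4167 ± 892 to 33895 ± 10152 (SD, n = 6), and the log2 fold change was 2.99 ± 0.07 (SE), a 7.95-fold increase (limma, adjusted p = 2.89e-14). It was 6.91-fold in batch A and 8.52-fold in batch B, and by p IGF2 ranked 1 of the 13847 genes. In batch A reads of IGF2 made up 0.0432% to 0.0437% of the reads in non-senescent and 0.266% to 0.281% in senescent libraries. In batch B the shares were 0.0584% to 0.0732% and 0.501% to 0.609%. The 95% Wilson interval was 0.0421% to 0.0443% in the lowest library (non-senescent A1) and 0.602% to 0.615% in the highest (senescent B4). These intervals cover counting error only, and replicate libraries differed by more than that. The difference between the batches, 0.30 ± 0.13 on the log2 scale, did not pass the test (limma, interaction, adjusted p = 0.267).

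IGF2 lies 1387 bp from INS on the same strand of chromosome 11, and a readthrough gene, INS-IGF2 (2132538 to 2161209), overlaps both. INS increased from 19853 ± 8849 to 99547 ± 60362 (SD, n = 6), 5.81-fold in batch A and 4.23-fold in batch B. These means and SDs mix 2 batches with unlike levels. Non-senescent samples had 26863 and 34331 in batch A and 11021 to 16123 in batch B. Senescent samples had 167961 and 185508 in batch A and 49685 to 67918 in batch B. INS-IGF2 was assigned 32.6 to 39.1 normalised read counts in the 4 batch A libraries and no reads in the 8 batch B libraries, with no separation by group. INS and IGF2 do not overlap each other. Reads of INS-IGF2 cannot be fully told apart from those of INS or IGF2 where they share sequence, and the values are those the quantification assigned.

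Among 11681 genes with a mean of at least 20, the profiles over the 12 samples closest to that of IGF2, after batch means were subtracted from log2 values, were those of FGFR3 (r = 0.997), LMO2 (r = 0.996) and XXYLT1 (r = 0.994). FGFR3 encodes a fibroblast growth factor receptor tyrosine kinase, LMO2 a transcriptional cofactor and XXYLT1 a xylosyltransferase that acts on Notch. FGFR3 ranged from 128 to 167 in non-senescent and from 706 to 800 in senescent samples, LMO2 from 8.70 to 24.6 and from 239 to 359, and XXYLT1 from 49.5 to 110 and from 146 to 345. These samples share the 2-group design, so any gene with a large and even senescence difference correlates highly, and the coefficients are given as a description.

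The receptor gene IGF1R (chromosome 15, 98648539 to 98964530, plus strand) encodes the main signalling receptor of IGF ligands. Its non-senescent samples had 631 and 640 normalised read counts in batch A and 154, 160, 168 and 159 in batch B. The senescent samples had 797 and 968 in batch A and 333, 300, 335 and 330 in batch B. Each batch separated the groups, but batch A stood above batch B in both groups, so that the batch B senescent samples lay below the batch A non-senescent samples. The log2 fold change was 0.83 ± 0.10 (SE), a 1.78-fold increase (limma, adjusted p = 4.27e-06). It was 1.38-fold in batch A, under the fold limit, and 2.02-fold in batch B. IGF1R was the 1 member whose senescence difference differed between the batches, by 0.55 ± 0.16 on the log2 scale (limma, interaction, adjusted p = 0.0863), against 4.21% of all tested genes. With TMM scaling that p was 0.104 and with edgeR on recovered reads 0.101.

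INSR (chromosome 19, 7112255 to 7294414, minus strand) encodes the insulin receptor, whose A isoform also binds IGF2. A read at the 3′ end does not separate its isoforms. INSR had 251 and 274 normalised read counts in the non-senescent samples of batch A and 285, 348, 308 and 286 in those of batch B. In senescent samples it had 472 and 441 in batch A and 411, 428, 383 and 541 in batch B. The groups did not overlap, with the highest non-senescent sample below the lowest senescent one. The log2 fold change was 0.61 ± 0.10 (SE), a 1.52-fold increase (limma, adjusted p = 1.07e-04). Batch A gave 1.74-fold and batch B 1.43-fold. The change was close to the fold limit, and the call was lost with every library scaled to the same total (log2 fold change 0.50), in batch B alone (0.51), and without non-senescent replicate A1 (0.57), senescent replicate A1 (0.57) or senescent replicate B4 (0.55), while its adjusted p stayed at or below 0.00421.

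IGF2R (chromosome 6, 159969082 to 160113507, plus strand), the gene of the clearance and lysosomal sorting receptor, showed the least even increase of the receptors. In batch A the non-senescent samples had 241 and 257 normalised read counts and the senescent samples 264 and 268. In batch B the non-senescent samples had 154, 127, 191 and 114 and the senescent samples 234, 293, 174 and 361. One senescent sample of batch B, B3, lay inside the non-senescent range of that batch. The log2 fold change was 0.59 ± 0.18 (SE), an increase that just exceeded 1.5-fold (limma, adjusted p = 0.0148), where batch A gave 1.07-fold and batch B 1.78-fold, a difference that did not pass the test (interaction, adjusted p = 0.318). The call was lost with a pseudocount of 8 (log2 fold change 0.57), with the same total (0.48), without the batch term (adjusted p = 0.119), in batch A alone (0.10), with edgeR (0.57), and without non-senescent replicate B1 (0.58), B2 (0.52) or B4 (0.49) or senescent replicate B2 (0.52) or B4 (0.46).

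**Figure D2:**
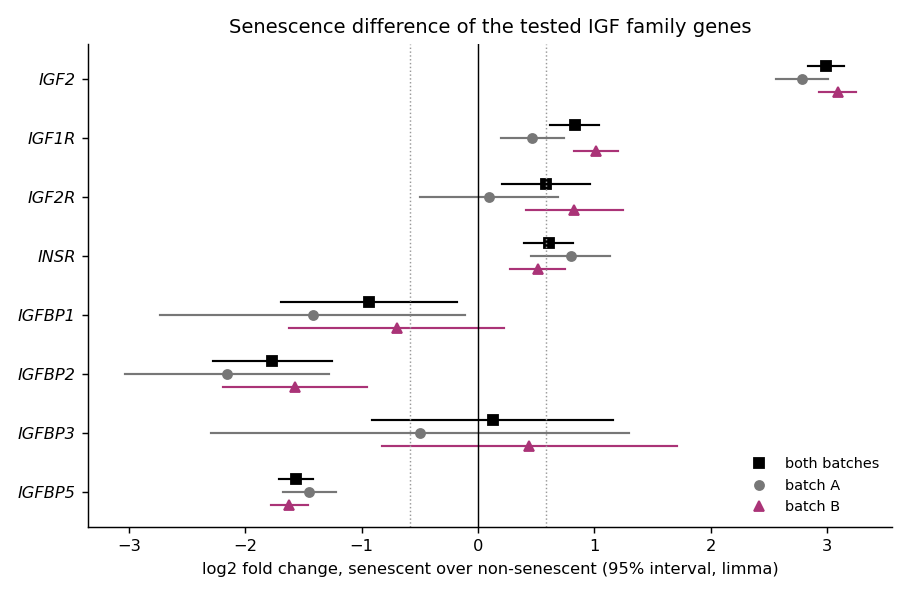
Log2 fold change of senescent over non-senescent samples (x axis) for the 8 tested IGF family genes, from limma with both batches (squares), batch A (circles) and batch B (triangles), with 95% intervals and dotted lines at the 1.5-fold limit. IGF2 lies at 2.99 and IGFBP5 at -1.56 with short intervals in each batch, IGF1R is further to the right in batch B than in batch A, and the interval of IGFBP3 spans 0.

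IGFBP5 (chromosome 2, 216672105 to 216695549, minus strand) encodes a binding protein that also attaches to extracellular matrix. The non-senescent samples had 3051 and 2991 normalised read counts in batch A and 5040, 4770, 4701 and 3922 in batch B. The senescent samples had 1098 and 1111 in batch A and 1477, 1437, 1597 and 1456 in batch B. All senescent samples were below all non-senescent samples, across the batches as well as within them. The means fell from 4079 ± 900 to 1363 ± 208 (SD, n = 6), with a log2 fold change of -1.56 ± 0.07 (SE), 2.96-fold lower (limma, adjusted p = 1.88e-11). The decrease was 2.73-fold in batch A and 3.08-fold in batch B, and IGFBP5 ranked 23 of the 13847 genes by p.

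The ligand gene rose and this binding protein gene fell, and the IGF2 reads per IGFBP5 read were computed within each library, a quantity chosen after the values were seen and therefore given without a test. There were 0.970 to 1.06 IGF2 reads per IGFBP5 read in the 6 non-senescent libraries and 18.6 to 31.1 in the 6 senescent ones. The log2 ratio was higher in senescent samples by 4.24 (batch A) and 4.71 (batch B). The ratio does not depend on the scaling of the libraries, and a ratio near 1 does not mean equal numbers of transcripts.

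**Figure D3:**
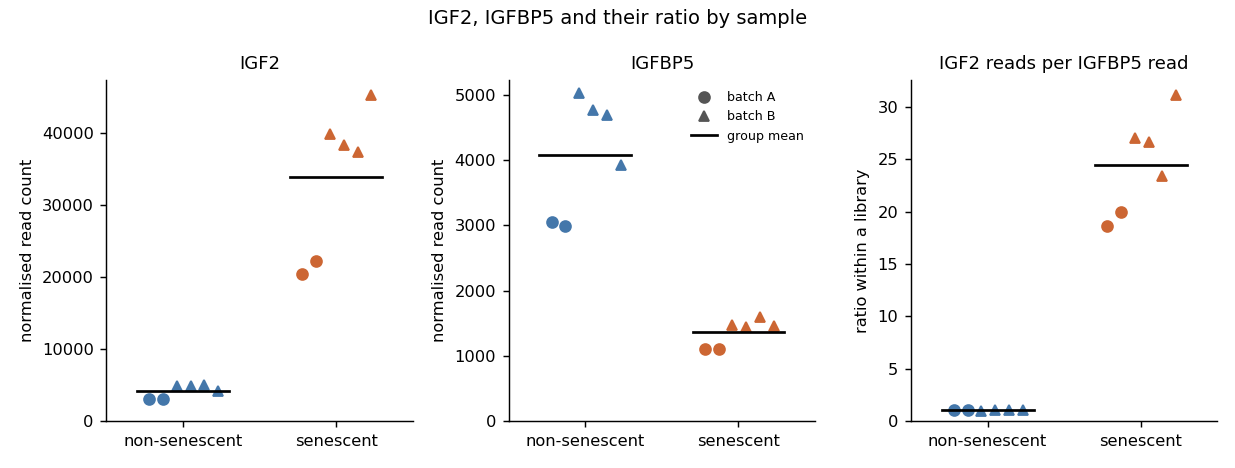
Normalised read counts of IGF2 (left) and IGFBP5 (middle) and the IGF2 reads per IGFBP5 read (right) in each of the 12 samples, circles batch A, triangles batch B and bars the group means. The ratio stays between 0.970 and 1.06 in the non-senescent samples and between 18.6 and 31.1 in the senescent samples.

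IGFBP2 (chromosome 2, 216632828 to 216664436, plus strand) lies 7668 bp from IGFBP5 in the opposite orientation and encodes a binding protein with a preference for IGF2. Non-senescent samples had 143 and 139 normalised read counts in batch A and 30.1, 27.5, 36.5 and 52.2 in batch B. Senescent samples had 40.4 and 23.6 in batch A and 7.27, 13.6, 16.0 and 9.96 in batch B. The groups were apart in each batch, although 1 senescent sample of batch A lay inside the range of the batch B non-senescent samples. The log2 fold change was -1.77 ± 0.24 (SE), 3.41-fold lower (limma, adjusted p = 1.91e-05), where batch A gave 4.46-fold and batch B 2.98-fold.

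IGFBP1 (chromosome 7, 45888360 to 45893660, plus strand), known from liver as a binding protein gene that insulin represses, was low and varied more. The non-senescent samples had 43.4 and 45.3 normalised read counts in batch A and 7.53, 13.8, 4.38 and 17.4 in batch B. The senescent samples had 17.5 and 14.5 in batch A and 12.1, 4.20, 4.58 and 3.74 in batch B, so that the groups overlapped in batch B. The log2 fold change was -0.94 ± 0.36 (SE), 1.92-fold lower (limma, adjusted p = 0.0472). Batch A gave -1.42 and batch B -0.70 on the log2 scale. The call was lost without the filter on low values (adjusted p = 0.107), without the batch term (0.359), in batch B alone (0.357), and without non-senescent replicate A2 (0.101), non-senescent replicate B4 (0.107) or senescent replicate A2 (0.104).

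IGFBP3 (chromosome 7, 45912245 to 45921874, minus strand), 18584 bp from IGFBP1, encodes the main IGF carrier of blood. Its levels were near the filter, 5, 3.97, 4.52, 2.75, 2.92 and 17.4 normalised read counts in the non-senescent samples A1, A2 and B1 to B4 and 2.24, 3.62, 7.27, 2.10, 13.7 and 12.5 in the senescent samples of the same names. The groups overlapped, and the log2 fold change of 0.13 ± 0.49 (SE) had a 95% interval from -0.91 to 1.17 (limma, adjusted p = 0.863). A change past the 1.5-fold limit in either direction lies inside that interval.

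IGFBP4 (chromosome 17, 40443450 to 40457725, plus strand) and IGFBP6 (chromosome 12, 53097436 to 53102345, plus strand), which encode an inhibitory binding protein and an IGF2-preferring one, were below the filter. IGFBP4 ranged from 0 to 9.54 normalised read counts in non-senescent and from 0 to 4.58 in senescent samples, with 25 and 16 reads in all. IGFBP6 ranged from 0 to 5 and from 0 to 1.81, with 14 and 7 reads in all. Without the filter the log2 fold changes were -0.15 ± 0.56 (adjusted p = 0.876) and -0.53 ± 0.38 (adjusted p = 0.389, limma), so no difference was detectable at this depth.

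Markers of cells that could bring in IGF or IGFBP RNA were read in the same libraries. Over all marker lists 18 genes were tested and 12 called, against 23.4% of all tested genes. Of 8 mesenchymal markers 2 passed the filter and limma called 0, with 0 at an unadjusted p under 0.05 and 0 called by edgeR or DESeq2. Their sum ranged from 18.9 to 126 normalised read counts in non-senescent and from 15.3 to 57.2 in senescent samples, and PDGFRA, PDGFRB, LUM and THY1 had at most 3 reads in any library. Of the ductal and acinar list KRT19 was lower and CPA1 higher among 2 tested genes, while SOX9, CFTR, PRSS1 and CELA3A had at most 5 reads in any library. Of the endothelial and blood list PTPRC was lower among 3 tested. Of the hepatocyte list TTR and SERPINA1 were higher among 3 tested. The third, APOA1, was not called (log2 fold change -0.78, limma, adjusted p = 0.234), and ALB had at most 5 reads in any library. The beta cell list had 4 genes higher (INS, IAPP, PDX1 and MAFA) and 1 lower (PCSK1) among 6 tested. The remaining tested gene, NKX6-1, had a log2 fold change of -0.37 (limma, adjusted p = 0.0137), short of the fold limit and not called. GCG and SST, the other endocrine genes tested, were lower. The part of these marker genes in the IGF family differences was not tested.

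The rest of the IGF system was read from 5 lists by role, with 45 genes, of which 35 were tested and 9 called, 7 higher and 2 lower, against 23.4% of all tested genes. These 35 genes had a median log2 fold change of 0.05. Of the other ligands and carriers 3 were higher and 1 lower among 5 tested. IGFALS, the gene of the acid-labile subunit that stabilises IGF complexes in blood, had 0 to 4.52 normalised read counts in non-senescent and 22.9 to 38.9 in senescent samples, a log2 fold change of 3.45 ± 0.38 (limma, adjusted p = 1.59e-06). It rested on 12 reads in the 6 non-senescent libraries against 204 in the senescent ones, passed the filter only through the senescent group, and with a pseudocount of 8 the value was 1.89. IGFBP7, a related secreted protein gene with weak IGF binding, rose by 0.88 ± 0.29 on the log2 scale (adjusted p = 0.0219), from 8.89 to 30.1 in non-senescent and 15.3 to 45.1 in senescent samples, and IGFBPL1, a relative of IGFBP7, fell by 1.60 ± 0.48 (adjusted p = 0.0133). IGFBPL1 had 37 reads in the senescent libraries against 78 in the non-senescent ones and passed the filter only through the non-senescent group, so its call, like that of IGFALS, is no independent support. The IGFBP7 call was lost without the batch term (adjusted p = 0.131). IGF1, the other IGF ligand gene, had at most 8.77 normalised read counts in any sample, 32 reads in all in the non-senescent group against 17 in the senescent group, and was below the filter. Without the filter its log2 fold change was -0.96 ± 0.44 (limma, adjusted p = 0.147), which was not called.

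Of the proteases that cleave binding proteins and the inhibitors of these proteases 2 were higher and none lower among 8 tested. Of all tested genes 23.4% were called, close to the share in this list. PAPPA2, a protease of IGFBP3 and IGFBP5, had a log2 fold change of 1.22 ± 0.49 (limma, adjusted p = 0.0595), but -0.12 in batch A and 1.90 in batch B. HTRA1, a serine protease, had a log2 fold change of 0.80 ± 0.36 (adjusted p = 0.0883). Both were low, at 0 to 38.9 and 2.78 to 16.8 normalised read counts, and PAPPA2 lost its call in 6 of 12 alternatives and HTRA1 in 5 of 12. PAPPA2 also lost it without non-senescent replicate B2 (log2 fold change 0.81) or B4 (1.06) or senescent replicate B3 (0.99) or B4 (1.13). HTRA1 kept its call only without non-senescent replicate B1 or B2 or senescent replicate B3, and was at 0.68 to 0.82 in the other 9 fits that left out 1 library.

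Of all tested genes 23.4% were called, and among the receptor adaptors and feedback genes 1 was called, as higher, among 9 tested. This was IRS1, the adaptor that IGF1R and INSR phosphorylate, which had 39.2 to 70.7 normalised read counts in non-senescent and 75.1 to 142 in senescent samples, without overlap. Its log2 fold change was 0.97 ± 0.14 (SE; limma, adjusted p = 4.57e-05), 0.98 in batch A and 0.96 in batch B. Limma did not call the other 8 genes, which had log2 fold changes from -0.21 to 0.58. At an unadjusted p under 0.05 limma had 4 genes of the list, and edgeR and DESeq2 each called 2. The following 4 are outside the rule for named genes and were chosen after their values were seen. GRB14, an adaptor that inhibits INSR, had a log2 fold change of 0.58 ± 0.23, short of the fold limit with limma (adjusted p = 0.0619) and past it with edgeR (0.62, adjusted p = 0.0415) and DESeq2 (0.61, adjusted p = 0.0382). SH2B1, an adaptor of receptor kinases, had 0.36 ± 0.14 (limma, adjusted p = 0.049) and GRB2, which links receptors to Ras, had 0.21 ± 0.09 (limma, adjusted p = 0.0691), both under the fold limit. IRS2, the second main adaptor of beta cells, had 0.05 ± 0.10 (limma, adjusted p = 0.719).

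Among the regulators of the IGF2 locus and of IGF2 mRNA 1 was higher and 1 lower among 6 tested, against 23.4% of all tested genes called. A further 2 genes of the list were not analysed here. PLAGL1, an imprinted zinc finger gene known to regulate the IGF2 locus, had 619 and 576 normalised read counts in the non-senescent samples of batch A and 1358, 1278, 1244 and 1193 in those of batch B. In senescent samples it had 1656 and 1735 in batch A and 3730, 3520, 3364 and 3237 in batch B. The groups did not overlap, and the log2 fold change was 1.47 ± 0.06 (SE), a 2.76-fold increase (limma, adjusted p = 9.08e-12, rank 22 of 13847 by p). LIN28B, an RNA-binding protein gene known from fetal tissues to promote IGF2 translation, fell by 0.83 ± 0.23 on the log2 scale (adjusted p = 0.00967), but the groups overlapped in batch B, and in batch B alone the call was lost (-0.59, adjusted p = 0.151). None of the 7 genes of mannose 6-phosphate sorting, the route that IGF2R shares with lysosomal enzymes, was called by limma, with 1 (GNPTAB, named after its values were seen) at an unadjusted p under 0.05, and edgeR and DESeq2 on recovered reads called 0.

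**Figure D4:**
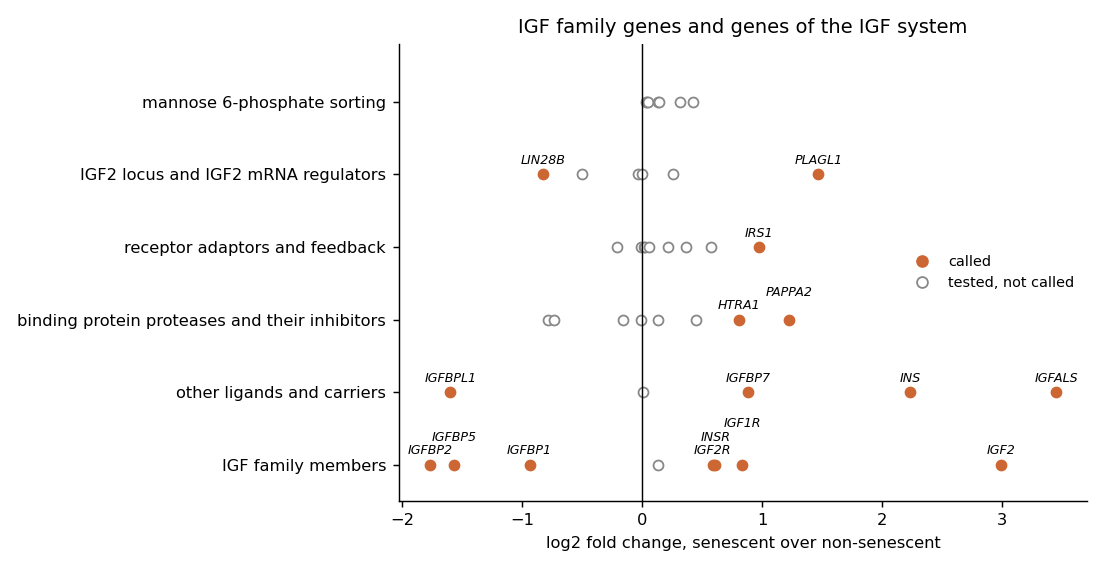
Log2 fold change of senescent over non-senescent samples (x axis) for the tested IGF family members and 5 lists of the IGF system (rows), filled circles called and open circles tested but not called. Called members lie on both sides of 0, with IGF2 at 2.99 and IGFBP2 at -1.77, while the 7 sorting genes lie between 0.03 and 0.42 and are all open circles.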

How the data were processed

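CEL-seq2 libraries of 12 EndoC-βH3 samples were analysed. According to the study's methods and the submitters' processing notes, Cutadapt trimming, the GRCh38 genome and Salmon 0.13.1 gave reads per gene, which the authors normalised with DESeq2. How molecular identifiers were handled, and which transcript annotation was used, is not given in the sources used here. The deposited values are a signal, reads divided by 1 size factor per library. The 6 columns of the authors' DESeq2 output (mean signal, log2 fold change and its error, a test score, p-value and adjusted p-value) were not used, and 0 columns were unmapped. All non-zero values (100% of 196021) were whole multiples of the value of 1 read (tolerance 1e-06), so reads were recovered. Of 35337 rows 22707 had reads. Totals were 4672924 to 17106776 reads, and counts of 14 replicate pairs differed more than sampling (chi-square per degree of freedom 4.14 to 7.66).

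Groups were compared with limma 3.58.1 (R 4.3.3) on log2(value + 1), with the intensity trend, batch and group, for the 13847 genes with a mean of at least 5. Fold changes on this scale understate the change of low genes. Calls needed an adjusted p under 0.1 and a fold over 1.5, the study's limits, and batch differences were tested as the batch by group interaction. edgeR 4.0.16 and DESeq2 1.42.0 on recovered reads, other pseudocounts, filters, scalings and designs were alternatives. On simulated counts for senescent against non-senescent samples (13847 genes, 200 changed), 89.3% of genes changed at least 2-fold and 26% of those changed 1.5-fold were called, 95.5% of calls were changed genes, and 0 genes were called without changes. The genes changed 1.5-fold lay at the fold limit itself. Far fewer genes were changed than the 3237 called in the data, so these rates need not hold for the data.

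The members and the gene lists were chosen with earlier results of these data known. Named were all members, the called genes of each list with the largest change (up to 3 per direction), INS, IGF1 and INS-IGF2, and the 3 genes most like IGF2. Gene positions came from GENCODE v44 and promoter windows from RefSeq, matched by symbol. Samples with the same replicate number were not treated as paired in the main fit. They did not deviate together, which cannot exclude a pairing.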

Additional observations from a re-analysis of the deposited data

Results flagged for a closer look

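Among 32 groups of 4 or 6 samples of the members' values, 3 held a sample far from the others. The groups of 4 are the batch B samples of the groups of 6, which mix both batches. The groups are thus not independent, and no rate by chance is given. IGF1R was 300.2 normalised read counts in senescent replicate B2, below the 330 to 335 of the other senescent samples of batch B, and still above every non-senescent sample of that batch. IGFBP1 was 12.1 in senescent replicate B1, above the 3.74 to 4.58 of the other 3 senescent samples of batch B. IGFBP3 was 17.4 in non-senescent replicate B4, above the 2.75 to 5 of the other 5 non-senescent samples. For IGF1R the log2 fold change of batch B exceeded that of batch A by 0.55 (limma, interaction, adjusted p = 0.0863).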

How the results depend on the processing

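Under the 13 alternatives to the test of the members, between 4 and 7 of the members were called, with 4 only when the batch term was left out (2143 genes called in all, against 3237), and between 5 and 7 when 1 library was left out at a time. IGF2, IGFBP2 and IGFBP5 kept their call and direction in all 13 alternatives and in the 12 fits without 1 library, with log2 fold changes of 2.79 to 3.09, -2.16 to -1.42 and -1.67 to -1.45 over the alternatives. No called member changed direction in these fits. The IGF1R call was lost without the batch term (adjusted p = 0.288) and in batch A alone (log2 fold change 0.47), and its batch difference, the 1 among the members, was not called with TMM scaling or with edgeR (0 members each). Of the genes of the IGF system 9 were called, with 5 after a filter at a mean of at least 20, which removes low genes from the test. PAPPA2 changed direction in batch A alone (-0.12). The cause of the other changes was not tested. Samples of different groups with the same replicate number did not deviate together (correlations of -0.05 in batch A and -0.01 to 0.02 in batch B). With the replicate block 7 members, 9 genes of the IGF system and 3211 genes in all were called. At this depth 3 reads are worth 1.35 to 4.52 normalised read counts, which limits IGFBP3, IGFBP4 and IGFBP6.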
